A study of Mus musculus with 12 samples.

Results

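The genes described here encode the voltage-gated sodium channels, the voltage-gated calcium channels and the HCN channels. They were chosen by symbol (Scn with a number and a or b, Cacna, Cacnb, Cacng or Hcn with a number), and 43 of 20807 autosomal protein-coding genes of the mouse annotation met the rule. They fell into 10 sodium channel alpha subunits, 4 sodium channel beta subunits, 9 calcium channel alpha1 subunits (Cacna1), 4 alpha2delta subunits (Cacna2d), 4 beta subunits (Cacnb), 8 gamma subunits (Cacng) and 4 HCN channels. Acetylation of histone H4 at lysine 12 (H4K12ac) was mapped by chromatin immunoprecipitation and sequencing (ChIP-Seq) in FACS-sorted neuronal nuclei, 5 samples from *Tip60* cKO and 5 from control mice, each of an entire hippocampus. *Tip60* cKO mice carried the tamoxifen-inducible CaMKCreERT2 driver and floxed *Tip60* on both alleles, and controls were *Tip60* f/f littermates without the driver, which were also injected with tamoxifen. The driver acts in excitatory neurons of the forebrain, so inhibitory neurons among the sorted nuclei, progenitors and glia keep TIP60, and a weaker mark in all nuclei cannot be told apart from its loss in some of them. The animals were labelled as male C57BL/6J mice of 3 months, whereas the study's methods name C57BL/6N and either sex, and tissue was taken at day 10 after the last injection. The question was which channel genes carry H4K12ac in these neurons and where it differs between the genotypes.

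TIP60, encoded by *Kat5*, is a lysine acetyltransferase with histone H4 among its substrates, and acetylated H4 is typical of active promoters and enhancers. Voltage-gated sodium channels carry the inward current of the action potential through a pore-forming alpha subunit, while beta subunits modify gating and bring the channel to the membrane. In calcium channels the alpha1 subunit forms the pore, the cytoplasmic beta subunit and the extracellular alpha2delta subunit support its trafficking and gating, and most gamma proteins of the brain are auxiliary subunits of AMPA receptors. HCN channels open upon hyperpolarization and carry the current that sets resting potential and dendritic integration in pyramidal neurons.

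The sequences shown next are the promoters that the results turn on, 250 bases before to 50 bases after the transcription start site (TSS) in RefSeq on GRCm38.p6, 5′ to 3′ on the strand of the gene, with CpG dinucleotides in capitals. Cacna1i was the channel gene with the highest TSS score in controls and separate genotypes, Cacng5 had the largest difference in TSS score, Scn8a had the strongest TSS peak among the sodium channel alpha subunits, and Scn10a had no peak in any mouse. They lie at chr15:80286988-80287287 (plus strand), chr11:107915006-107915305 (minus strand), chr15:100870395-100870694 (plus strand) and chr9:119718983-119719282 (minus strand).
Cacna1i: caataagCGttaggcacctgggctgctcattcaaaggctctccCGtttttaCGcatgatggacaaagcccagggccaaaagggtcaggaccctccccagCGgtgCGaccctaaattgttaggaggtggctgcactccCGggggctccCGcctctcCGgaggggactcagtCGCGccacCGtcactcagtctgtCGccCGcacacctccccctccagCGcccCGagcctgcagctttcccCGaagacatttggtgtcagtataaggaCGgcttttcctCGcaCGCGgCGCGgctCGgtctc
Cacng5: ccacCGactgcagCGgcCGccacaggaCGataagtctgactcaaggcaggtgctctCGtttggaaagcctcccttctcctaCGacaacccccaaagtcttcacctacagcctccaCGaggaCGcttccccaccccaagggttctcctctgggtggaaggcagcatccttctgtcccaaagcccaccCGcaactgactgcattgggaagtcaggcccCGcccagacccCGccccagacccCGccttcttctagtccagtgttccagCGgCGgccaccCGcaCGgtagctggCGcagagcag
Scn8a: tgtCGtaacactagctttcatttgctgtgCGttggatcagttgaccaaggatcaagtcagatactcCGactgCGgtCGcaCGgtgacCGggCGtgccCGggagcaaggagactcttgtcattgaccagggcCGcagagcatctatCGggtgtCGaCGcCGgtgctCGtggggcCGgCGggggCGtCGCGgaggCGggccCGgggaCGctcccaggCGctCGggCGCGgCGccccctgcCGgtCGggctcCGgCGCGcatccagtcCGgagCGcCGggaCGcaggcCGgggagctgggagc
Scn10a: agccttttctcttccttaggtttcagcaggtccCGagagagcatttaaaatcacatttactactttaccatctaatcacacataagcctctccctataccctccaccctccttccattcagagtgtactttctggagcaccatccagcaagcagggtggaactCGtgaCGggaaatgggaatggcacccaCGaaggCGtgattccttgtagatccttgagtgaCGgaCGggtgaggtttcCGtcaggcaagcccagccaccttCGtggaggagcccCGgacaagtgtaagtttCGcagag
These stretches hold 23, 17, 38 and 11 CpG, respectively, and the RefSeq start of Scn8a lies 787 bp from the TSS used for the peaks. A RefSeq promoter within 2 kb of the TSS was found for 28 of the 43 genes. The 20 of them with a TSS peak in all 10 mice held between 2 and 42 CpG per 300 bases (median 24.5), and the 8 others between 3 and 43 (median 4.50), compared with a median of 23 in 7166 autosomal protein-coding genes with a peak in all mice and 3 in 3815 genes without any peak. Across the 28 genes the number of CpG and the control TSS score had a Spearman rho of 0.543 and a Pearson r of 0.527 (0.648 and 0.626 across 13952 genes), which describes genes that share libraries and base composition and are not independent replicates. The order had exceptions, since Scn2b, Scn2a, Cacnb3, Cacng6, Cacng3, Cacna1s and Scn9a held between 2 and 9 CpG and had a TSS peak in all 10 mice, while Cacna2d2 held the most (43) and had a peak in 9. The GC box GGGCGG was present on either strand in 14 of the 28 channel promoters (50%) and in 51.8% of all promoters of this length, and the TATA box TATAAA in 1 channel promoter (3.57%) and in 11.6% of all.

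Further sequences are shown for intronic regions with a peak in all 5 controls and in no *Tip60* cKO mouse, as 300 bases around the median summit on the plus strand of GRCm38, again with CpG in capitals. They lie at chr6:119050127-119050426 in Cacna1c, chr1:154845615-154845914 in Cacna1e and chr14:29025749-29026048 in Cacna2d3.
Cacna1c intron: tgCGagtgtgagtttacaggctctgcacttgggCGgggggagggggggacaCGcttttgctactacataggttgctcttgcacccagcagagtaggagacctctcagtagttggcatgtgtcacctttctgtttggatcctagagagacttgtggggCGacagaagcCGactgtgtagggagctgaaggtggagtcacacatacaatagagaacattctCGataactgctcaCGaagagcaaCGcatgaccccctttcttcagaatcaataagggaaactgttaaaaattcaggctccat
Cacna1e intron: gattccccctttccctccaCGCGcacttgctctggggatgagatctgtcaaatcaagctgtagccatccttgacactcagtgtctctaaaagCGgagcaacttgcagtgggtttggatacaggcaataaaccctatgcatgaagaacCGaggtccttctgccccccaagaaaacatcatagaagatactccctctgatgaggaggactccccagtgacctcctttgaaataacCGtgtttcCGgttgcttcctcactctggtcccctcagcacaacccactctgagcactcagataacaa
Cacna2d3 intron: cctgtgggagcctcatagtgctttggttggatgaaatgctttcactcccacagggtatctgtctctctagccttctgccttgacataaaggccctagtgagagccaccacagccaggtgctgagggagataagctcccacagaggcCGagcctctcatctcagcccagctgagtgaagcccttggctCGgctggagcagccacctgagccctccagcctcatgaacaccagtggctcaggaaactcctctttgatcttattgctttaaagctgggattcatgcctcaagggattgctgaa
They held 8, 6 and 2 CpG, against a median of 4 in the same window of 143941 regions with peaks. In all stretches 6 motifs were searched on both strands, with overlaps allowed: the AP-1 site TGANTCA, the cAMP response element TGACGTCA, the E-boxes CACGTG and CAGATG, the GC box GGGCGG and the TATA box TATAAA. The Cacna1c stretch held the GC box 1 time, as did 12.5% of all such windows, and the other intronic stretches held none of the motifs. The Cacng5 promoter held the GC box 2 times and the AP-1 site 1 time, the latter present in 6.62% of all promoters.

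Between 22864189 and 37923809 tags per mouse entered peak calling, and the lists held 64245 to 136409 peaks. Control lists covered 56.4 ± 10.7 Mb and *Tip60* cKO lists 43.8 ± 14.0 Mb (SD, n = 5). The local background drawn from the pooled input of the genotype was at the genome-wide level for 51.9 ± 4.74% of *Tip60* cKO peaks and 28.7 ± 2.84% of control peaks (SD, n = 5), and its part in the results below was not tested. Neuronal markers had a TSS peak in all 10 mice (8 of 8 genes), at most 1 of 5 interneuron, 2 of 5 astrocyte, 1 of 5 oligodendrocyte and 1 of 5 microglia markers did so in any mouse, and Gad1, Sst, Aqp4, Mog and Cx3cr1 had none. Among 2 markers of oligodendrocyte precursors *Tip60* cKO mice had a mean TSS score of 36.9 ± 3.00 and controls of 13.5 ± 18.5 (SD, n = 5), which rested on Cspg4 alone, and at most 1 of 3 endothelial markers had a peak in any *Tip60* cKO mouse and none did in controls. Neurons (86.7 ± 2.59 and 89.9 ± 0.933), astrocytes (14.1 ± 9.5 and 21.0 ± 8.72) and microglia (2.90 ± 6.49 and 11.7 ± 6.59) had the lower mean in *Tip60* cKO mice. By a smaller margin, so did interneurons (8.37 ± 7.65 and 8.66 ± 7.91) and oligodendrocytes (19.2 ± 0.228 and 19.3 ± 0.234). The part of these markers in the results was not tested. *Kat5* itself had a TSS peak in every mouse, and reads over its floxed exons were not used here.

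To compare genes within a mouse, the strongest peak by fold enrichment within 2 kb of the annotated 5′ end of each gene was ranked among the windows of all annotated genes. This TSS rank score is a percent, with 0 for a gene without a peak, and TSS coverage is the percent of the same window that lies in peaks. Most channel genes carried H4K12ac at the TSS in control neurons. A peak was present in all 10 mice at 28 of 43 genes (65.1%), in some mice at 9 and in none at 6 (14.0%), while for all autosomal protein-coding genes these shares were 46.2% in all and 32.8% in none. In the plot of scores by gene, the single values lie either above 65 or at 0. This gap is built into the score, since windows without a peak fill the lower ranks and are set to 0. Losing even a weak peak therefore moves the score of a mouse by more than 65 points.

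**Figure D1:**
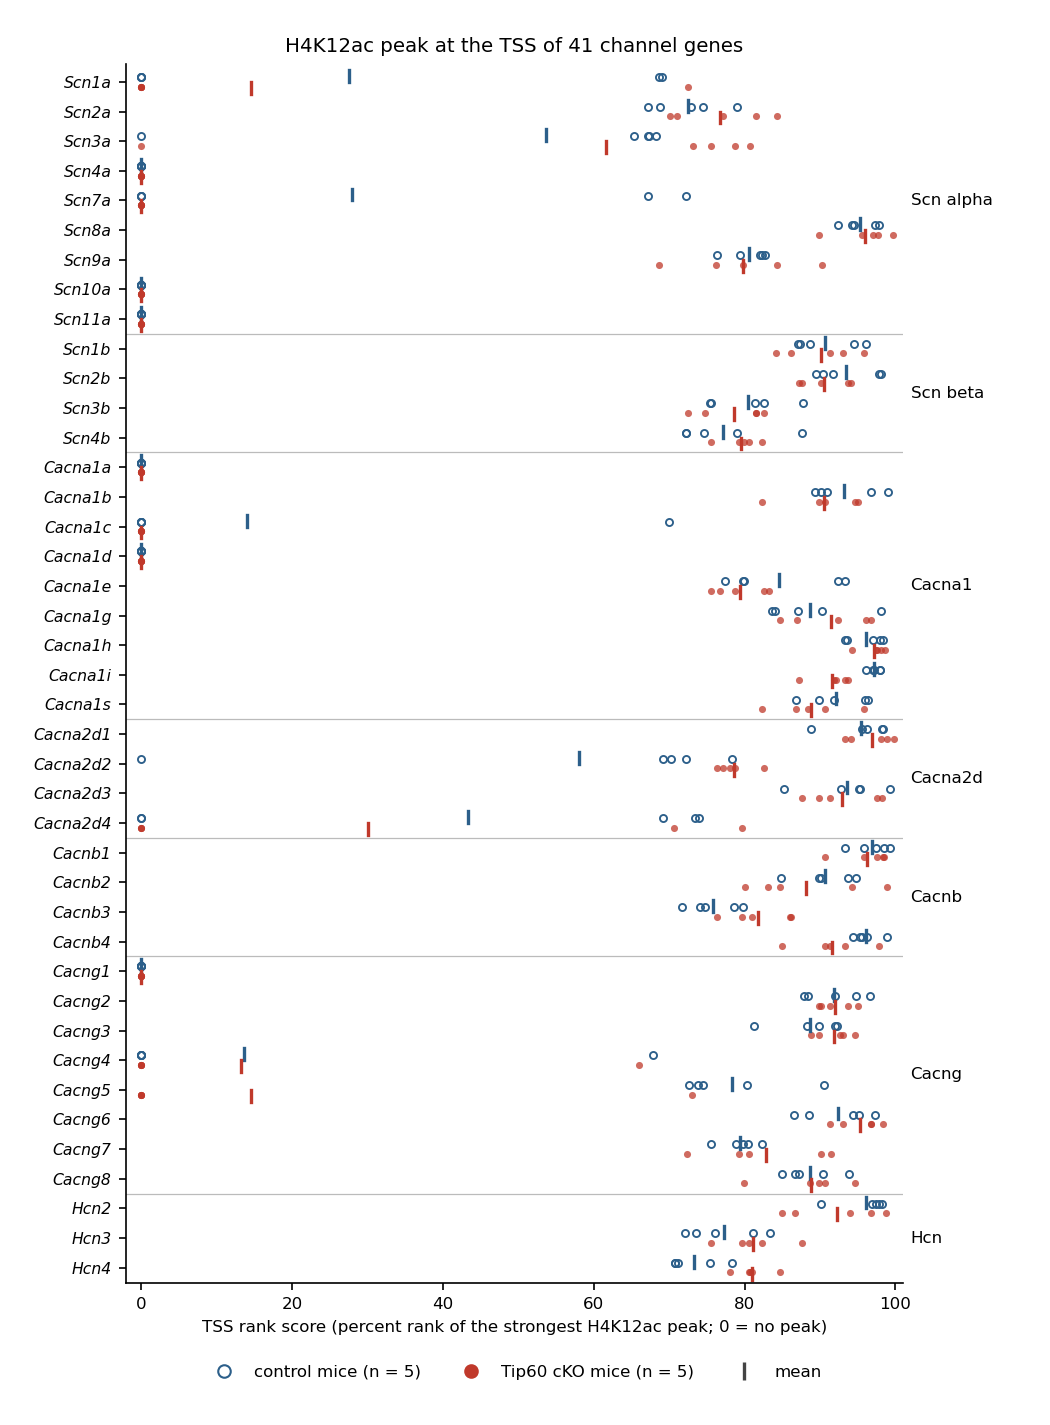
TSS rank score of H4K12ac (percent, x axis) of 41 channel genes (y axis, by subfamily). Open blue points are the 5 control mice, filled red points the 5 *Tip60* cKO mice and vertical bars the means. All beta subunits of sodium and calcium channels and all HCN channels drawn have peaks in every mouse, while 6 genes lie at 0 in all 10.

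Sodium channel alpha subunits ranged from strong TSS peaks to none. Scn8a, the main axonal sodium channel of adult excitatory neurons, had a score of 95.2 ± 2.26 in controls (SD, n = 5), and Scn9a and Scn2a followed with 80.5 ± 2.70 and 72.5 ± 4.68. Scn4a, the skeletal muscle channel, and Scn10a and Scn11a, known from peripheral sensory neurons, had no TSS peak and no peak in the gene body in any mouse. The remaining alpha subunits had peaks in only some mice, among them Scn7a in 2 controls and no *Tip60* cKO mouse. Scn1a, the channel of inhibitory interneurons and the subject of epilepsy genetics, had a peak at its 5′ end in 2 controls and 1 *Tip60* cKO mouse, but 77.8 ± 4.16 in controls when any annotated start of the gene was allowed. Scn1a, Scn2a, Scn3a, Scn7a and Scn9a lie close together on chromosome 2, and Scn10a and Scn11a on chromosome 9. Genes of 1 cluster thus had unlike TSS peaks.

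All 4 sodium channel beta subunits had TSS peaks in every mouse, from 93.5 ± 4.12 for Scn2b to 77.1 ± 6.48 for Scn4b in controls. The calcium channel alpha1 subunits reached from 97.2 ± 0.762 for Cacna1i, a T-type channel, to 0 for Cacna1a and Cacna1d, which encode the P/Q-type and an L-type pore. This lower end depended on the start that was used. With any annotated start, Cacna1a scored 96.5 ± 2.26, Cacna1d 98.7 ± 1.65 and Cacna1c, the other neuronal L-type channel, 91.1 ± 1.77 in controls, and the strongest start lay 26.9 kb, 138 kb and 88.2 kb inside the gene. In this setting 34 of 43 genes had a peak in all mice, and Scn4a, Scn10a, Scn11a and Cacng1 had none. Cacna1s, the skeletal muscle L-type channel, scored 92.2 ± 4.07, but its window also holds the start of Ascl5, so that its peak cannot be assigned to one of them. Starts of other genes also lay in the windows of 8 further members (Scn1a, Cacna2d1, Cacnb1, Cacnb2, Cacng2, Cacng4, Cacng6 and Cacng8).

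Among the auxiliary subunits, Cacna2d1, the gabapentin-binding alpha2delta subunit, had 95.4 ± 3.90 and Cacna2d4 43.3 ± 39.6 in controls, the latter with a peak in 3 of 5 mice. All Cacnb genes had peaks in every mouse, with Cacnb1 highest (96.8 ± 2.39) and Cacnb3 lowest (75.8 ± 3.31). Of the gamma genes, Cacng2 (stargazin), Cacng3, Cacng6, Cacng7 and Cacng8 had peaks in all mice, with a top score of 92.4 ± 4.58 for Cacng6, and Cacng1, a subunit of the skeletal muscle calcium channel, had none. The HCN channels had peaks in every mouse, with Hcn2, a main form of hippocampal pyramidal neurons, highest (96.1 ± 3.36) and Hcn3 (77.2 ± 4.81) and Hcn4 (73.3 ± 3.4) lower in controls, and the values of Hcn3 and Hcn4 overlapped between mice.

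At the TSS, no channel gene passed the threshold after adjustment over all genes, and Cacna1i, Cacng5 and Hcn4 had the smallest p-values. The scores are ranks within a mouse, so a fall of the mark shared by most genes largely drops out of them. Lower, higher or unchanged scores are thus relative to other genes and do not show that the mark was unchanged. The fit with limma covered 13373 genes with a peak in at least 2 mice, 36 of them channel genes. It called 36 genes in all (0.269%; 0.157% lower and 0.112% higher in *Tip60* cKO mice) and 0 channel genes at an adjusted p below 0.05. The mean score was lower at 19 of 36 channel genes (52.8%) and at 55.6% of all genes. At an unadjusted p below 0.05 there were 4 channel genes (11.1% of 36, against 11.9% of all genes), with Cacna1i and Cacng5 lower and Hcn4 and Cacnb3 higher in *Tip60* cKO mice. The exact permutation test for each gene, two-sided, has 0.00794 as its smallest p and could not pass the adjustment over all genes.

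Cacna1i (chr15:80287238-80398279, plus strand) encodes a T-type channel known for burst firing. Its TSS scores were 97.1, 97.9, 97.9, 97.0 and 96.1 in controls 1 to 5 and 92.1, 91.9, 93.4, 93.7 and 87.2 in *Tip60* cKO mice 1 to 5. Every *Tip60* cKO mouse lay below every control, and the difference was -5.56 with a standard error of 1.61 (limma, adjusted p = 0.210). It was the only channel gene whose genotypes did not overlap at the TSS by this score (2.78% of 36), where 1.72% of all genes were lower and 1.91% higher without overlap. The fold enrichment of the peak over background was 8.69 ± 0.716 in controls and 6.18 ± 0.675 in *Tip60* cKO mice (SD, n = 5). Coverage of the window was 59.5 ± 4.59% in controls and 43.6 ± 12.4% in *Tip60* cKO mice, also without overlap.

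Cacng5 (chr11:107874605-107915055, minus strand), a gamma subunit that binds AMPA receptors, had TSS scores of 74.4, 73.8, 80.4, 90.5 and 72.6 in controls 1 to 5. In *Tip60* cKO mice the score was 73.0 in mouse 1 and 0 in the other 4. The groups thus overlapped only through *Tip60* cKO mouse 1, and the difference was -63.7 with a standard error of 14.0 (limma, adjusted p = 0.103). Without that mouse the difference was -78.3 (limma, adjusted p = 6.33e-06), but the gene then enters the test through the controls alone and is compared with a constant of 0. Of the channel genes, 1 (Cacng5) had a peak in at least 4 more control than *Tip60* cKO mice, as did 0.553% of all genes, and 0 had the reverse (0.127% of all genes). The 5 control peaks had a fold enrichment of 3.77 to 6.41, and the single *Tip60* cKO peak 3.70.

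Hcn4 (chr9:58823412-58863175, plus strand), known as the pacemaker channel of the heart, went the other way. It scored 70.8, 70.8, 78.3, 75.4 and 71.1 in controls and 80.7, 80.6, 78.1, 80.9 and 84.8 in *Tip60* cKO mice. Only control 3 reached the range of the *Tip60* cKO mice (difference 7.74, standard error 2.07, limma, adjusted p = 0.160). Cacnb3 was 6.01 higher with a standard error of 2.52 (adjusted p = 0.390). With any annotated start it was 0.879 higher (limma, adjusted p = 0.951). Its TSS coverage had the lower mean in *Tip60* cKO mice, 24.6 ± 9.86% against 29.5 ± 4.56% in controls (SD, n = 5).

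Larger differences rested on mice without a peak. Cacna2d2 was 20.6 higher, and the differences of Scn7a and Cacna2d4 were -27.9 and -13.2, with standard errors between 13.6 and 23.8 and adjusted p-values from 0.519 to 0.826 (limma). Scn7a entered the test through 2 controls alone and was compared with a constant of 0, so its direction was fixed. Scn3a was 8.01 higher (standard error 19.0), with control 3 and *Tip60* cKO mouse 3 at 0 and all other *Tip60* cKO mice (73.2 to 80.7) above all other controls (65.3 to 68.3). These values moved with single mice. Without control 5 the difference of Cacna2d2 was 6.06, that of Scn7a was -16.8 without control 2 and -18.1 without control 5, and that of Cacna2d4 lay between -25.6 and -5.56 with any 1 mouse left out. The difference of Scn3a was -5.39 without control 3, 23.4 without *Tip60* cKO mouse 3 and 3.25 to 5.12 without any other *Tip60* cKO mouse. Processing choices moved them too, without a call. With the same number of peaks per list the difference was 61.6 for Scn3a and 48.4 for Cacna2d2, and at q below 0.01 it was 21.0 for Scn3a. With all transcripts it was 4.35 for Cacna2d2 and 3.64 for Cacna2d4, and with 1 kb on either side of the TSS -29.7 for Cacna2d4. Cacnb4 (-4.46) had the next smallest p-value of the channel genes (limma, adjusted p = 0.515).

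Coverage of the TSS window was lower in *Tip60* cKO mice at most genes of the genome, and channel genes followed. The mean was lower at 28 of 36 channel genes (77.8%) and at 84.4% of all genes, and values were lower without overlap at 3 channel genes (8.33%) and at 5.94% of all genes (higher without overlap: 0 and 0.105%). These 3 were Cacna1i, Cacng5 and Cacna1s. Cacna1s was covered by peaks to 65.3, 68.2, 48.7, 59.3 and 88.6% in controls and to 46.1, 41.3, 32.3, 46.5 and 27.6% in *Tip60* cKO mice, while its rank score overlapped. With coverage in place of the score, a choice made after seeing the data, limma called 336 genes (2.51%), all lower, and 2 of 36 channel genes (5.56%), Cacng5 (adjusted p = 0.0378) and Cacna1s (adjusted p = 0.0490). Averaged over all 43 channel genes, coverage was 29.6 ± 3.39% in controls and 24.3 ± 4.66% in *Tip60* cKO mice, and over all genes 16.6 ± 1.64% and 13.1 ± 2.72% (SD, n = 5). The difference of -5.24 percentage points at channel genes was -3.45 without *Tip60* cKO mouse 5. In sequencing lane 7, read from the file names (replicates 1 to 3), the channel genes differed by -4.06 and in lane 8 by -7.00 percentage points.

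**Figure D2:**
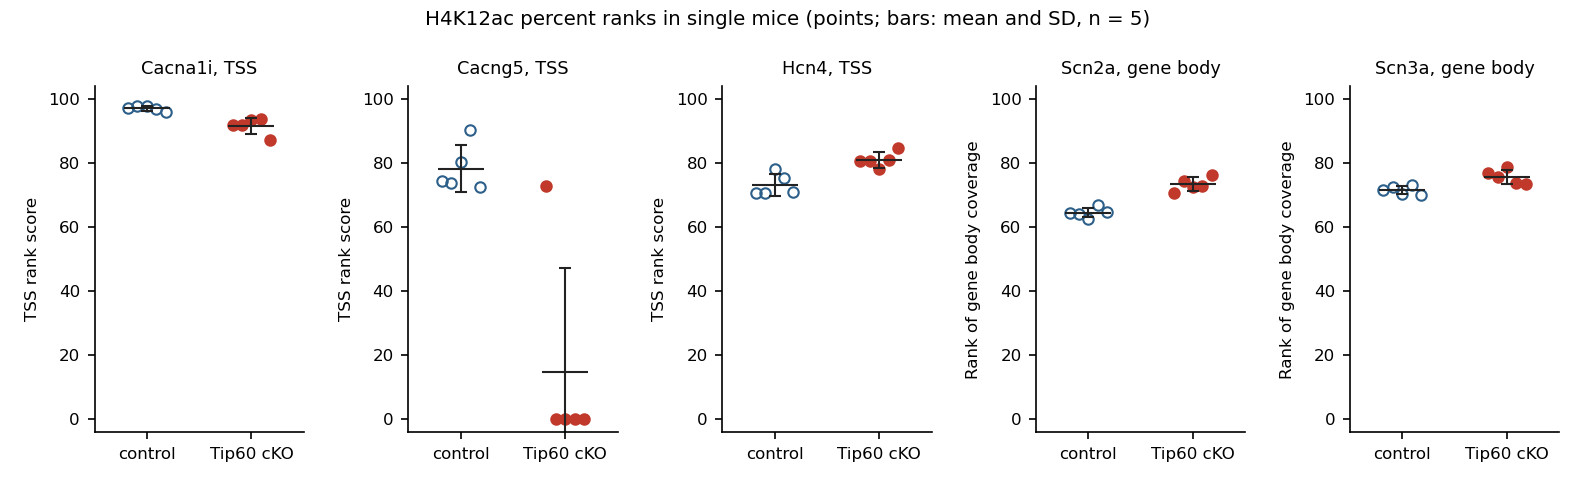
Percent ranks (y axis, 0 to 100) in single mice for the TSS rank score of Cacna1i, Cacng5 and Hcn4 and for the rank of gene body coverage of Scn2a and Scn3a. Open blue points are controls, filled red points *Tip60* cKO mice, and bars give mean and SD (n = 5 each). The genotypes are separate for Cacna1i, Scn2a and Scn3a, and *Tip60* cKO mouse 1 is the only one of its group with a Cacng5 peak.

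In the gene body, which began 2 kb downstream of the TSS, most channel genes were covered by peaks above the median of all genes, and Scn2a came closest to the threshold between genotypes. Channel genes are long, with a median of 98.9 kb against 17.6 kb for all genes. The body also holds internal annotated starts, so its coverage can include peaks at promoters. The annotated start with the strongest control peak lay 47.9 kb inside Scn2a and 110 kb inside Cacna2d2. The part of such starts in the body results was not tested. In controls, peaks covered a median of 3.93% of the body of the 43 channel genes, compared with 0.394% for 17869 autosomal protein-coding genes longer than 4 kb. Below that median lay 9 channel genes, and the 10 sodium channel alpha subunits had a median of only 0.191%. No body peak was found in any mouse at 5 channel genes (11.6%) and at 36.8% of all genes. The bodies of Cacna1h, Cacnb3, Cacnb1, Hcn2 and Cacng6 were covered most, by 36.2 ± 8.92%, 30.9 ± 9.44%, 25.5 ± 7.05%, 24.9 ± 4.71% and 18.5 ± 8.19% in controls (SD, n = 5), and the ranges of any 2 of them overlapped. Scn8a and Cacna1g were covered by 16.5 ± 4.49% and 16.1 ± 3.18%, whereas the long gene Cacna2d1 had only 0.652 ± 0.343%. The number of body peaks was largest in Cacna1c (200.2 per control mouse), followed by Cacna1e (97.8) and Cacna2d3 (89.8).

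**Figure D3:**
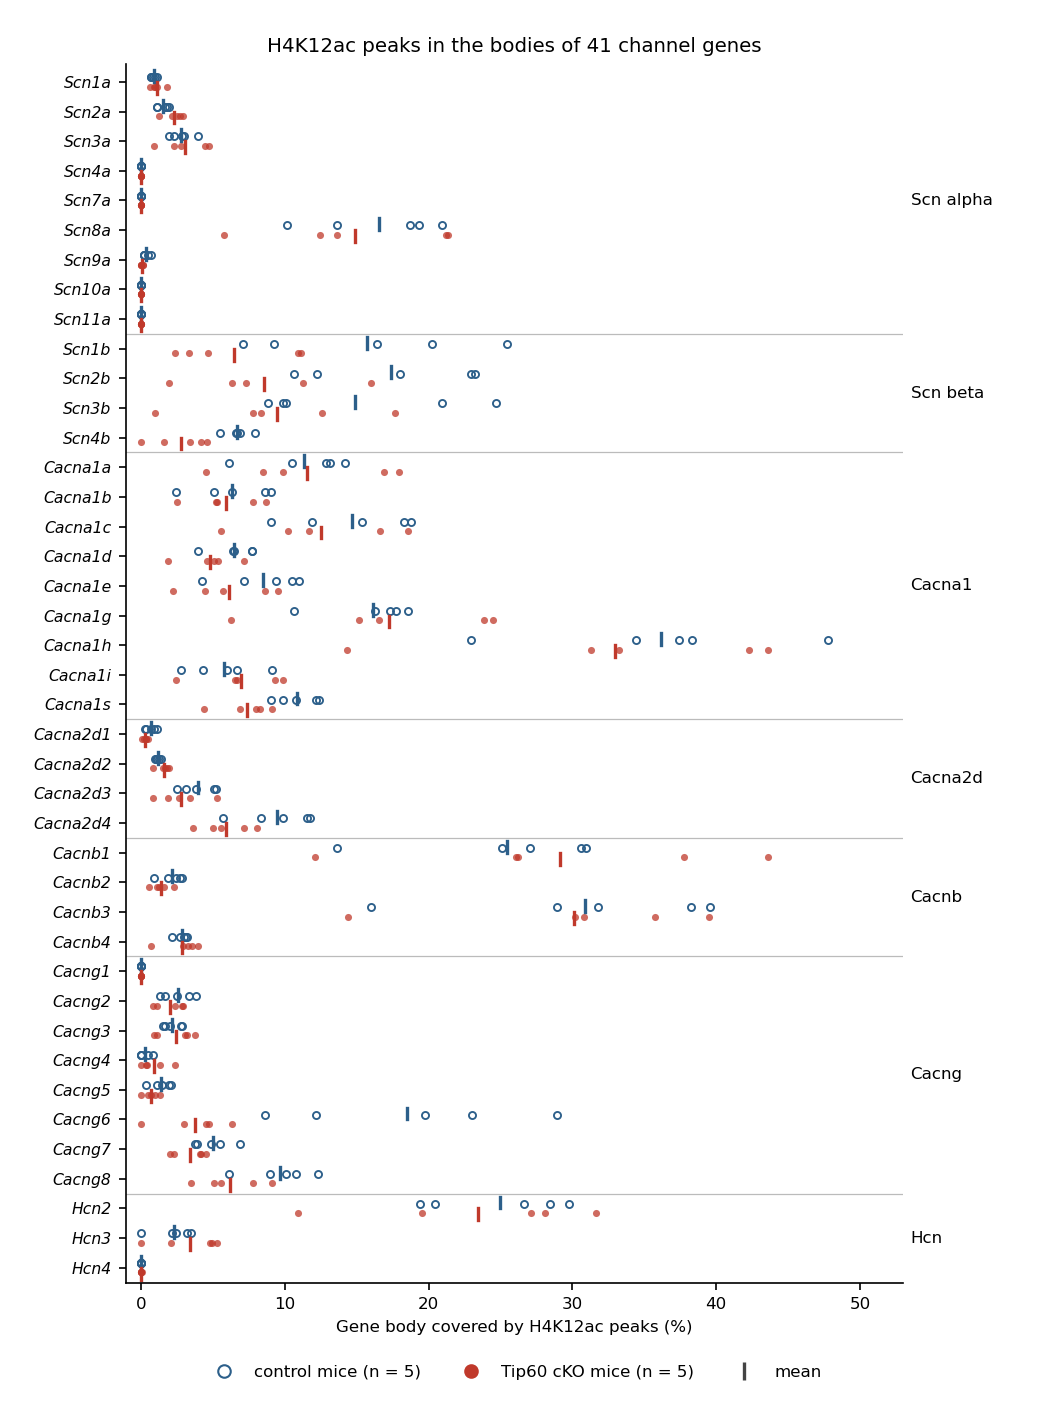
Percent of the gene body covered by H4K12ac peaks (x axis) for 41 channel genes (y axis, by subfamily). Open blue points are the 5 control mice, filled red points the 5 *Tip60* cKO mice and vertical bars the means. Cacna1h, Cacnb1, Cacnb3 and Hcn2 are covered most in both genotypes, and Cacng6, Scn4b and Scn9a are lower in every *Tip60* cKO mouse.

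Body coverage was compared as its percent rank within each mouse, so that differences are again relative to other genes. With limma, 17 of 10181 genes (0.167%; 0.138% lower and 0.0295% higher) and 0 of 37 channel genes passed the threshold. The mean rank was lower at 16 of 37 channel genes (43.2%) and at 51.5% of all genes. At an unadjusted p below 0.05 there were 6 channel genes (16.2%, against 11.5% of all genes), of which 5 were higher. No channel gene had lower ranks without overlap (2.03% of all genes). The ranks did not overlap and were higher in *Tip60* cKO mice for 2 channel genes (5.41%, against 1.84% of all genes), Scn2a and Scn3a, which are neighbours on chromosome 2 and transcribed away from each other.

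Scn2a (chr2:65620771-65767447, plus strand), a sodium channel of the axon and dendrites of excitatory neurons, had body ranks of 64.4, 64.0, 62.7, 66.8 and 64.9 in controls 1 to 5. In *Tip60* cKO mice they were 70.8, 74.5, 72.7, 72.7 and 76.5. All *Tip60* cKO mice were above all controls, by 8.87 on average with a standard error of 1.34 (limma, adjusted p = 0.0597). The covered share itself, 1.51 ± 0.386% in controls and 2.29 ± 0.661% in *Tip60* cKO mice, overlapped between the genotypes. The adjusted p lay between 0.0276 and 0.462 over 19 alternatives, of which 6 passed the threshold and 13 did not. It was 0.0276 without *Tip60* cKO mouse 1, 0.0467 without control 4 and 0.462 with the replicate number as a block. Its TSS score overlapped (72.5 ± 4.68 and 76.8 ± 6.25).

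Scn3a (chr2:65457118-65567627, minus strand), a sodium channel best known from the developing brain, had ranks of 70.2 to 73.3 in controls and 73.4 to 78.7 in *Tip60* cKO mice. The difference of 4.04 had a standard error of 1.33 (adjusted p = 0.340). Cacna1i and Cacna2d2 were higher by 5.60 and 6.93 (adjusted p = 0.305 and 0.246), with overlap between the genotypes. Cacna1i thus had a lower mean TSS score and a higher mean body rank in *Tip60* cKO mice, and neither difference passed the threshold. With the TSS window included, 2 of 39 channel genes were called (5.13%, against 0.221% of all genes), Scn2a and Cacna2d2, both higher (adjusted p = 0.0403 and 0.0381).

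Measured as percent covered, body coverage was lower at 24 of 37 channel genes (64.9%) and at 74.1% of all genes. It was lower without overlap at 3 channel genes (8.11%, against 3.86% of all genes), and at none higher (0.0589% of all genes). Cacng6 (chr7:3424195-3435667, plus strand) was covered by 19.8, 28.9, 23.0, 8.61 and 12.2% in controls and by 6.33, 4.72, 0, 2.98 and 4.51% in *Tip60* cKO mice. Its TSS score was 92.4 ± 4.58 in controls and 95.3 ± 2.93 in *Tip60* cKO mice, and its TSS coverage was 78 ± 9.23% and 73.8 ± 3.29%, with overlap for both measures. Scn4b, a beta subunit, and Scn9a, a sodium channel known from pain pathways, had 6.69 ± 0.863% and 0.335 ± 0.212% in controls and 2.75 ± 1.91% and 0.0543 ± 0.0746% in *Tip60* cKO mice. None of the 3 passed the test of ranks (adjusted p from 0.382 to 0.636).

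To locate differences inside the long genes, peaks of all mice were merged into regions, and each region received in each mouse the percent rank of its strongest peak, or 0 without a peak. Of 143941 autosomal regions present in at least 2 mice, 1263 lay in channel genes or their TSS windows, and 260 of these in Cacna1c alone. Limma called 4 of them (0.317%), against 810 of all regions (0.563%). Called regions were lower in *Tip60* cKO mice in Cacna1c, Cacna1e and Cacna2d3 (0.238%, against 0.476% of all) and higher in Cacna1g (0.0792%, against 0.0868% of all). The groups did not overlap at 15 lower and 11 higher regions (1.19% and 0.871%, against 1.34% and 0.787% of all), and a peak was present in at least 4 more controls at 20 and in at least 4 more *Tip60* cKO mice at 11 regions (1.58% and 0.871%, against 2.26% and 0.498% of all). At an unadjusted p below 0.05 there were 129 (10.2%, against 12% of all). The mean was lower at 640 of 1263 regions (50.7%) and at 56.8% of all regions.

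**Figure D4:**
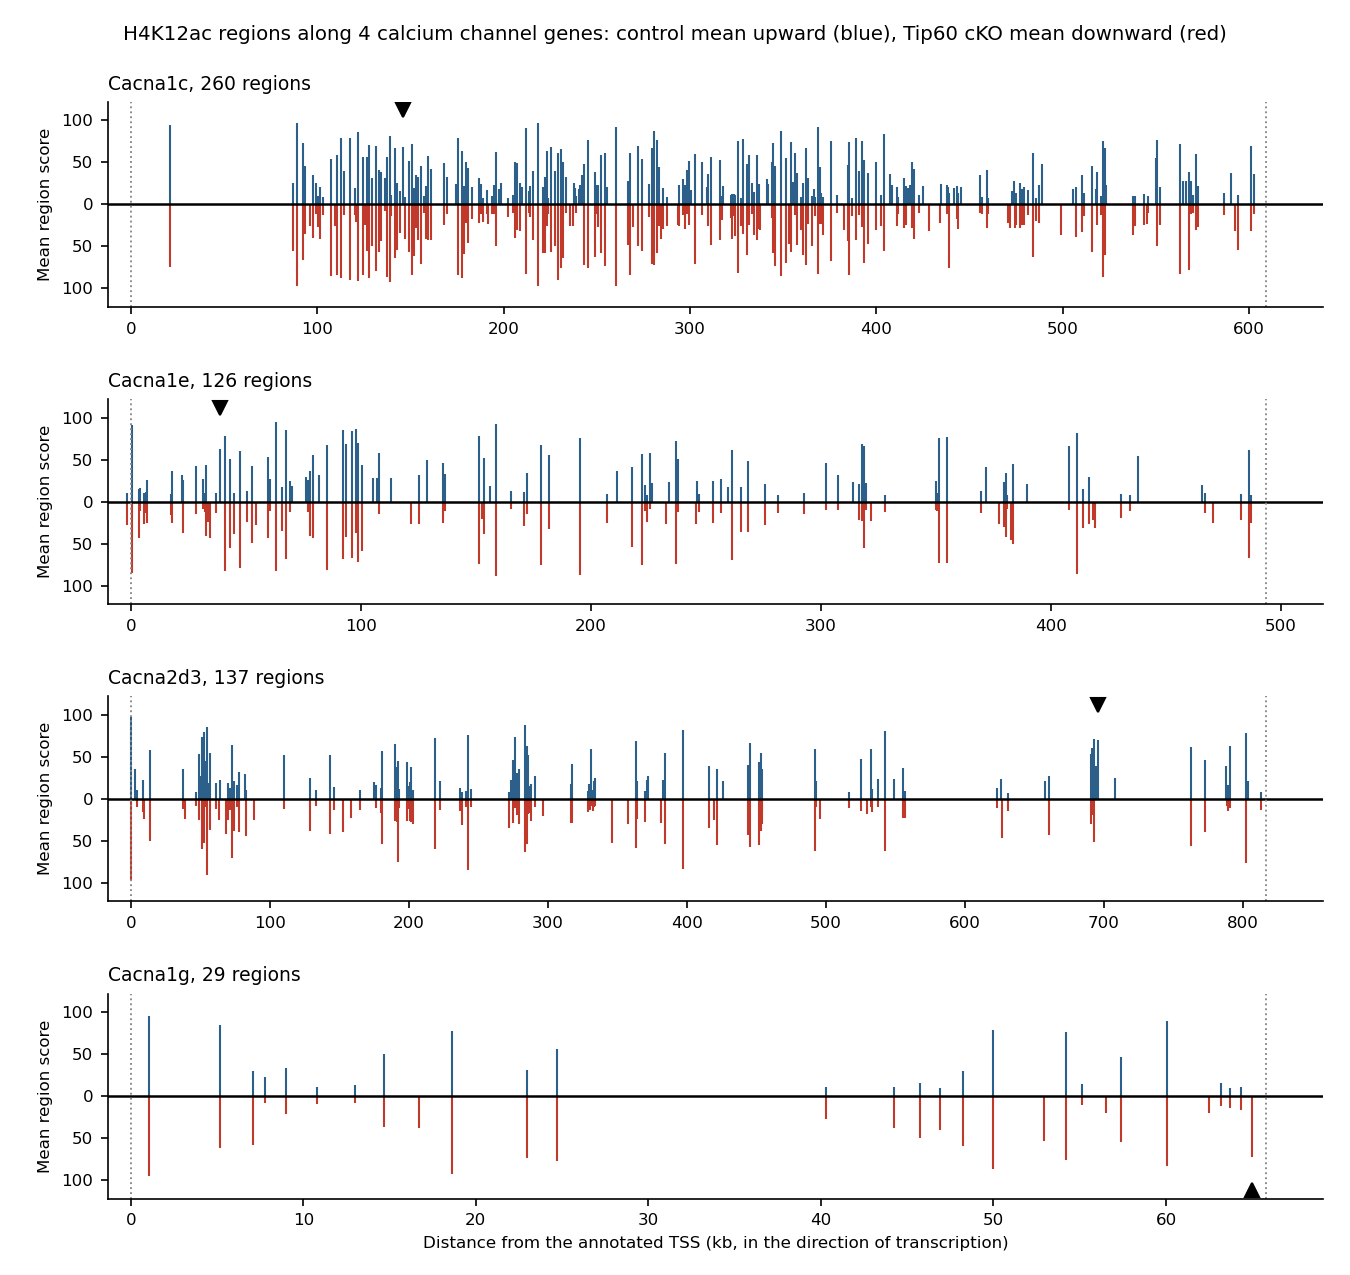
Regions with H4K12ac peaks along Cacna1c, Cacna1e, Cacna2d3 and Cacna1g (x axis, distance from the TSS in kb, dotted lines at both gene ends). Bars give the mean region score (percent rank) of 5 controls upward in blue and of 5 *Tip60* cKO mice downward in red, and black triangles mark the called regions. Most regions have bars in both directions, while the marked ones have a bar in 1 genotype only.

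The region in Cacna2d3, an alpha2delta subunit gene of 817 kb, lies in an intron at chr14:29025409-29026181, 696 kb from the TSS and 4.54 kb from the start of Lrtm1. It scored 79.4, 66.5, 74.0, 71.7 and 61.2 in controls 1 to 5 and had no peak in any *Tip60* cKO mouse (difference -70.6, standard error 5.50, adjusted p = 2.94e-04). In Cacna1e, which encodes the R-type pore, the region chr1:154845294-154846260 lies in an intron 38.7 kb from the TSS and scored 55.9, 51.0, 66.9, 65.4 and 73.4 in controls and 0 in all *Tip60* cKO mice (adjusted p = 6.44e-04). The intronic region chr6:119049940-119050544 of Cacna1c, 146 kb from the TSS, scored 59.1, 63.0, 57.8, 82 and 80.6 in controls and again 0 in all *Tip60* cKO mice (adjusted p = 7.30e-04). All 3 thus had a peak in 5 controls and in no *Tip60* cKO mouse, and they entered the test through the control lists alone, so that they had to differ and their p-values compare the controls with a constant of 0.

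The region of Cacna1g, a T-type channel, was the reverse. It lies at chr11:94408866-94409582 over an exon near the 3′ end, 65.0 kb from the TSS, and its sequence is not printed because the stretch around the summit overlaps a UTR. It scored 54.5, 86.9, 73.8, 61.7 and 88.7 in *Tip60* cKO mice 1 to 5 and 0 in all controls (difference 73.1, standard error 7.69, limma, adjusted p = 0.0011). It entered the test through the *Tip60* cKO lists alone, with the same limit on its p-value. The TSS scores of these 4 genes overlapped between the genotypes or, for Cacna1c, were 0 in all but 1 control.

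**Figure D5:**
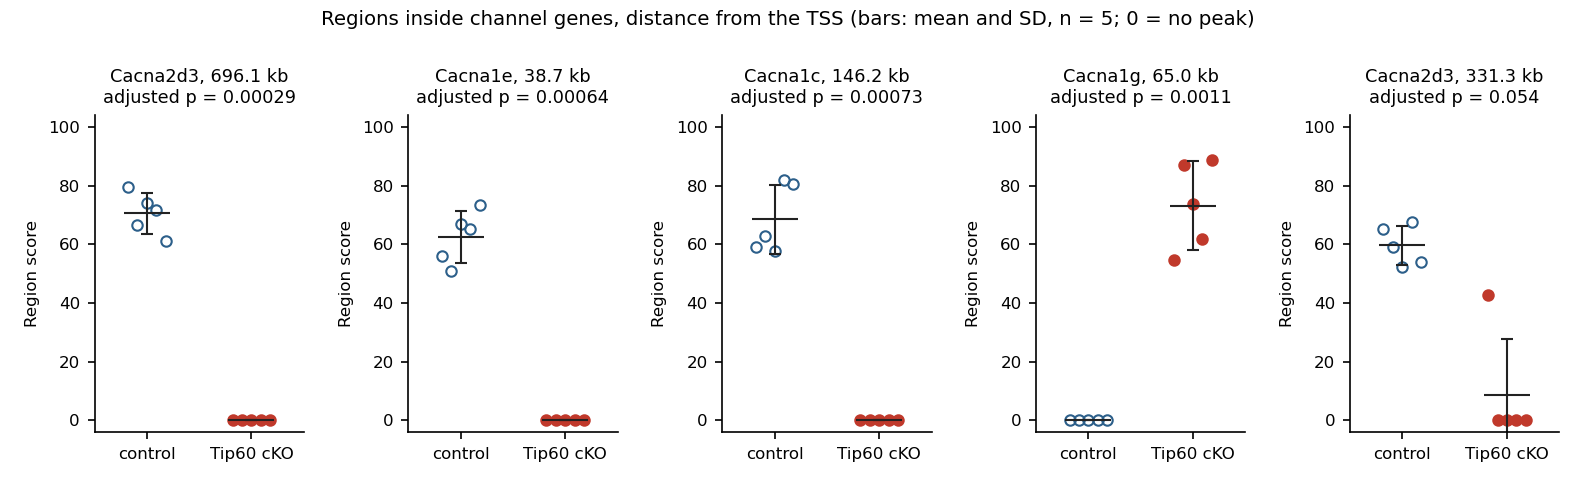
Region score (percent rank, y axis) in single mice for the 4 called regions and the next region by adjusted p, with the distance from the TSS above each panel. Open blue points are controls, filled red points *Tip60* cKO mice, and bars give mean and SD (n = 5 each). In the called regions 1 genotype is at 0 in all 5 mice, and in the last panel *Tip60* cKO mouse 1 has a peak.

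The peaks behind these calls were weak. Their pileup was between 13 and 23 fragments, their fold enrichment between 2.98 and 4.50, and the other genotype had peaks nearby, at 0.125 to 35.1 kb. A score of 0 says that no peak passed the threshold at the depth of that mouse and not that the mark was absent. As at the TSS, the step from 0 to even a weak peak was large by construction. Just outside the threshold were a region of Cacna2d3 331 kb from the TSS (adjusted p = 0.0536) and a region of Cacna1e 408 kb from the TSS (adjusted p = 0.0722), both with a peak in 5 controls and 1 *Tip60* cKO mouse. The count depended on single mice. Without *Tip60* cKO mouse 1, 11 regions were called (0.871%, against 0.746% of all), and without mouse 5 there were 11 with 8 of them higher (0.871%, against 0.753%). Some regions near the threshold had their only *Tip60* cKO peak in mouse 1, or lacked one in mouse 5 alone with none in controls. Leaving out that mouse makes them present throughout 1 genotype and 0 throughout the other. These counts have the same limit as the 4 calls above. Without *Tip60* cKO mouse 3 or mouse 4 there were 7 (0.554%, against 0.704% and 0.718%), and without control 4 there were 9 (0.713%, against 0.968%). Among regions in at least 5 lists, 13 were called (2.41%, against 1.67% of all). With the same number of peaks taken from each list limma called 0 of 666 (0.515% of all such regions). The differences then shrank to -36.4 in Cacna1c, -21.0 in Cacna1e, -24.4 in Cacna2d3 and 43.1 in Cacna1g. The exact permutation test could call none by design, since complete separation gave an adjusted p of 0.374. With the replicate number as a block, limma called only the Cacna2d3 region (0.0792%, against 0.174% of all). The other 3 then had adjusted p-values of 0.0506 to 0.0543. With a robust prior none of the 4 was called (limma, adjusted p from 0.138 to 0.227).

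Regions with peaks in all 10 mice were the stronger part of the lists, with 155 of 1263 in channel genes (12.3%) and 16.5% of all regions. Tested alone, 3 of them were called by limma (1.94%, against 0.287% of all regions in 10 mice), all in Cacna1d and chosen for naming after their values were seen. At 235 kb from the TSS scores were 41.5, 64.1, 46.2, 57.1 and 38.1 in controls and 92.1, 78.4, 83.7, 79.4 and 78.9 in *Tip60* cKO mice (adjusted p = 0.0418, and 0.0969 among all regions). At 366 and 207 kb the mean was lower, 68.6 against 90.9 (adjusted p = 0.0238) and 69.2 against 90.0 (adjusted p = 0.0460). Among all regions these 2 had adjusted p-values of 0.147 and 0.159, and no Cacna1d region was called there.

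Partners of these channels were looked at in the same way. Of 28 genes for ankyrins, fibroblast growth factor homologs, calmodulins, presynaptic scaffolds and other binding partners, 24 had a TSS peak in all 10 mice (46.2% of all genes did) and 0 passed the threshold of limma (0.269% of all genes). Rimbp2, a presynaptic scaffold gene, was the 1 partner without overlap, with 88.6 ± 4.88 in controls and 96.4 ± 1.18 in *Tip60* cKO mice (limma, adjusted p = 0.244, where 1.91% of all genes were higher without overlap). The mean TSS score was lower in *Tip60* cKO mice at 13 partners (55.6% of all genes), and the median difference was 0.115, compared with -0.433 for the 36 channel genes tested and -0.632 for all genes. Averaged over all 43 channel genes, *Tip60* cKO mice had a TSS score of 63.7 ± 2.52 and controls of 65.5 ± 1.78, with a TSS peak at 31.4 ± 1.52 and 32.8 ± 0.837 of these genes per mouse (SD, n = 5). Without *Tip60* cKO mouse 3 the differences were -0.748 in score and -0.8 in genes, compared with -1.79 and -1.4 with all mice. With lists cut to equal length both were higher in *Tip60* cKO mice, by 1.02 in score and 0.4 genes. Over all genes these scores were 48.7 ± 2.11 and 50.3 ± 0.532.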

How the data were processed

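H4K12ac ChIP-Seq peak lists of 5 *Tip60* cKO and 5 control mice were used, 1 list per mouse. The authors mapped reads to mm10 with STAR, discarded duplicate reads (samtools rmdup) and ran MACS 2.1.0.20140616 on each mouse, with a q threshold of 0.1 and the pooled input of the genotype as control. Per the file headers, the deposited pileup signal is the fragment coverage at the summit, fold enrichment is its ratio to the local background, and significance is given as −log10 p and −log10 q, so q was taken over and no read counts per region entered the tests. Depth per mouse was read from the headers, and weak regions fall below the threshold more easily in shallow lists.

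Genes came from GENCODE M21 on GRCm38, the same assembly as mm10. Peaks were ranked by fold enrichment within each list (pandas 2.3.3), and rank scores of genes or regions present in 2 or more lists were fitted with limma 3.58.1 in R 4.3.3 with Benjamini-Hochberg adjustment over all features, calling an adjusted p below 0.05. All adjusted p-values are from limma unless an exact permutation test is named, and they measure the spread among mice. The count model of the study, which needs reads, was not repeated. The scripts were tested on data with known answers first. In simulated TSS scores limma recovered 9.5% of changes of 10 points, 66.5% of 20 points and 79.5% of 40 points. Of its calls 9.52%, 6.34% and 7.02% were false, respectively. Changes of 10 points were thus mostly missed, and the absence of a call does not show the absence of a difference of that size. The members, lists and tests were chosen with earlier results of these data known. Of the 43 genes, 2 are counted in all totals but are not reported here by name. Named genes otherwise included those called or not overlapping and the highest and lowest in control TSS score per subfamily. They also included the 3 largest and 3 smallest TSS differences and the 5 highest in body coverage. Further genes, such as Scn1a, Hcn3 and Cacnb4, were named outside these rules. RefSeq promoters were matched by symbol. Alternatives covered the scaling, filters, peak threshold, lane (known from file names), replicate number and single mice.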

Additional observations from a re-analysis of the deposited data

Results flagged for a closer look

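Single mice stood apart from the other 4 of their group in 5 of 34 groups of values looked at, by the gap to the nearest mouse relative to the range (Dixon's test). Its rate of about 1 in 20 by chance holds for continuous values and not for 4 of these groups, in which mice with and without a peak differ by construction. For Cacna1i, *Tip60* cKO mouse 5, the mouse with the fewest tags, had a TSS score of 87.2 and the others 91.9 to 93.7. For Cacng5, *Tip60* cKO mouse 1 scored 73.0 and the others 0. For Scn3a, *Tip60* cKO mouse 3 scored 0 and the others 73.2 to 80.7, and control 3 scored 0 and the others 65.3 to 68.3. For Cacna2d2, control 5 scored 0 and the others 69.1 to 78.3. The part of depth in these values was not tested.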

How the results depend on the processing

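At the TSS, limma called 0 channel genes under most alternatives and 2 with TSS coverage in place of the score (chosen after seeing the data). With 1 mouse left out it called 0 to 1 of 36 (0.187 to 0.404% of all genes). The rule of at least 4 more mice of a genotype held for 1. In the gene body limma called 1 (Scn2a) with lane as covariate (2.70%, against 0.187% of all genes), at q below 0.01 (2.70%, against 0.219%) or with the same number of peaks per list (2.78%, against 0.213%). It called 2 of 39 with the TSS window included (0.221% of all genes) and 0 to 1 of 37 with 1 mouse left out (0.226 to 0.373% of all genes). Of the regions, limma called 13 of 539 among those in at least 5 lists (1.67% of all such regions). It called 4 to 11 of 1263 with 1 mouse left out (0.634 to 0.968% of all regions). Leaving out a mouse can itself make a region present throughout 1 genotype and 0 throughout the other. With the same number of peaks it called 0 of 666 (0.515% of all such regions). The exact permutation test called 0, as its smallest p allowed no call, and the rule of at least 4 more mice held for 31. With a robust prior the 4 regions were not called (adjusted p from 0.138 to 0.227), and 3 others in Cacna1d, Scn2b and Scn4b were (0.238%, against 0.218% of all regions). The cause was not tested. With the same number of peaks the mean number of channel genes with a TSS peak was 0.4 higher and the mean TSS score 1.02 higher in *Tip60* cKO mice. The sign changed for Cacna2d4 with all transcripts (3.64) and for Scn3a at the TSS ranked by pileup (-0.743), by coverage (-2.20) and with 1 mouse left out (-5.39 to 23.4). Mice with the same replicate number did not pair (correlations from -0.0265 to 0.0760, with replicates 1 and 4 correlating best with their own number), and a replicate block left 1 region called (Cacna2d3, adjusted p = 0.0480) and 0 channel genes at the TSS and in the body. Of 197 alternatives for 9 named gene values, 185 kept direction and side of the threshold, 8 gained a call and 4 changed sign. The 4 called regions are left out of this count, since their direction was fixed by the genotype without a peak. The direction of Scn7a was fixed in the same way, as no *Tip60* cKO mouse had a peak. Its 21 alternatives are still among the 185 and say nothing about stability. Over the whole genome, limma with the replicate block called 18 genes at the TSS and 251 regions, and with the robust prior 70 and 314.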
